A study of Mus musculus with 14 samples.

Results

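The genes described here are 58 regulators of pre-mRNA splicing, of 52550 genes in the deposited table of mouse lung tumor RNA. They were chosen by name, as SR proteins, heterogeneous nuclear ribonucleoproteins (hnRNPs), the kinases of SR proteins and related splicing regulators, and each was found in the table through its Ensembl identifier in the GRCm38 annotation. All 58 passed the filter on low counts, so none was lost from the comparison. They fell by role into 10 SR proteins, 7 SR-related and Tra2 proteins, 6 kinases, 20 hnRNPs, 3 polypyrimidine tract binding proteins, 5 lineage-restricted regulators, 4 RBM proteins and 3 LUC7-like proteins. The question was whether the RNA level of these genes differed between tumors with and without an sgRNA against Setd2.

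SR proteins bind exonic sequences through RNA recognition motifs and recruit the spliceosome through a domain rich in arginine and serine, while many hnRNPs bind exons or introns and block splice sites. The SRPK and CLK kinases phosphorylate the arginine-serine domain and so control where SR proteins are in the nucleus and what they bind. Many of these genes hold an ultraconserved exon with an in-frame stop codon, known as a poison exon, or an intron that can be kept, and splicing of either sends their own RNA to decay. SETD2 places trimethylation on lysine 36 of histone H3 along transcribed gene bodies, a mark that readers such as MRG15 are known to link to splicing regulators. These statements are background and not results of these data.

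The 14 libraries were 6 KPY-Ctrl and 8 KPY-Setd2KO tumors. Every tumor arose in a mouse that carried p53 flox/flox and a Rosa26 LSL-YFP reporter, on a mixed B6J/129S4vJae background, and was started by a lentivirus (LentiCRISPRv2Cre) given into the airway that carried Cre, Cas9 and an sgRNA. The sgRNA targeted β-galactosidase (sgBGal) in KPY-Ctrl and Setd2 (sgSetd2) in KPY-Setd2KO, so the loss of p53, YFP, Cre and Cas9 were shared by both groups. According to the study the tumors were matched for stage by histology and sorted for live YFP-positive cells. The mice were fewer than the tumors, the study gives only an upper age at tumor initiation, the mouse of each tumor and its age at collection are not given in the sources used here, and every test treated tumors as independent. The labels instead describe RNA from cell lines, and this conflict was not resolved.

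Total estimated counts ranged from 27866266 to 51828846 per KPY-Ctrl tumor and from 20072236 to 40604404 per KPY-Setd2KO tumor. Setd2 itself had a mean CPM (count per library total, scaled by the TMM method to a common size) of 53.0 with an SD of 8.51 over the 6 KPY-Ctrl tumors and of 31.7 with an SD of 10.9 over the 8 KPY-Setd2KO tumors. The log2 fold change was -0.74 (SE 0.22; edgeR quasi-likelihood test, adjusted p = 0.175), and the adjusted p was 0.0284 with the leukocyte-marker score in the model and 0.0492 in DESeq2. The tumors of each genotype fell into separate sets by a leukocyte-marker score, the mean log2 CPM of 15 leukocyte genes. The score was 2.41 to 3.66 in 3 KPY-Ctrl and 2.34 to 4.71 in 4 KPY-Setd2KO tumors, and 7.50 to 8.02 in the other 3 KPY-Ctrl and 7.87 to 8.22 in the other 4 KPY-Setd2KO tumors. Summed macrophage markers ranged from 345 to 34351 CPM in KPY-Ctrl and from 234 to 59837 CPM in KPY-Setd2KO, and summed epithelial markers from 14590.1 to 65626 CPM and from 6454 to 55473 CPM. T cell, B cell, neutrophil and stromal markers were low in both genotypes (the first 3 together 11.7 to 48.9 CPM, endothelial 16.0 to 67.6 CPM, fibroblast 3.13 to 89.0 CPM), and erythroid markers ranged from 62.5 to 752 CPM. Immediate early genes that respond to tissue digestion ranged from 460 to 7619 CPM over the 14 tumors. No marker gene passed an adjusted p of 0.05 between genotypes in edgeR's test, where 0% of all genes tested passed. An unadjusted p under 0.05, which 13.7% of all genes had, was seen for 8 marker genes. These were 3 of 7 T cell, B cell and neutrophil genes tested and 2 of 15 epithelial genes. The others were 2 of 10 endothelial and 1 of 5 erythroid genes. In that order, these lists had median log2 fold changes of 0.66, 0.02, 1.05 and 1.11. The medians were 0.36 for leukocyte, 0.39 for macrophage and -0.42 for fibroblast markers. KPY-Setd2KO 4, 1 of the tumors above the gap, held the highest level of 24 of the 58 members, and KPY-Ctrl 1 that of 10. In bulk RNA, fewer cells of a type and less RNA per cell cannot be told apart.

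The sequences below show where these genes start and how some of them are annotated to end their own messages. The first set is 3 promoters, of Luc7l3 and Hnrnpab, whose genotypes did not overlap, and of Hnrnpd, which had the largest log2 fold change. Each runs from 250 bases before to 50 after the RefSeq start (GRCm38.p6), 5′ to 3′ on the gene's strand. Capitals mark 4 kinds of motif on either strand, the GC box, the CCAAT box, the TATA box and the ETS motif.
Luc7l3 promoter, chr11:94321914-94322213, minus strand: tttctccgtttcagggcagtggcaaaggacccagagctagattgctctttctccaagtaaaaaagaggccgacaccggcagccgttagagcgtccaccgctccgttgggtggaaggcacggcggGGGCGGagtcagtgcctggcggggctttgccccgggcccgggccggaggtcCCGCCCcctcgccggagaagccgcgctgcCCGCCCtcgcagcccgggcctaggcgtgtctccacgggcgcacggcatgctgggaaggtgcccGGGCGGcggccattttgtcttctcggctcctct
Hnrnpd promoter, chr5:99978889-99979188, minus strand: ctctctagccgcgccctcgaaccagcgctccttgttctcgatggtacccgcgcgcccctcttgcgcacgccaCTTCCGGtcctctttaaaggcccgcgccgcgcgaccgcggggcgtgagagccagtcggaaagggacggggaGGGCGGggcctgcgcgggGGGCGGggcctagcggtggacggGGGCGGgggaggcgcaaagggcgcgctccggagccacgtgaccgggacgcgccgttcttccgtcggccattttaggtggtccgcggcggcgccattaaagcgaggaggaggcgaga
Hnrnpab promoter, chr11:51606832-51607131, minus strand: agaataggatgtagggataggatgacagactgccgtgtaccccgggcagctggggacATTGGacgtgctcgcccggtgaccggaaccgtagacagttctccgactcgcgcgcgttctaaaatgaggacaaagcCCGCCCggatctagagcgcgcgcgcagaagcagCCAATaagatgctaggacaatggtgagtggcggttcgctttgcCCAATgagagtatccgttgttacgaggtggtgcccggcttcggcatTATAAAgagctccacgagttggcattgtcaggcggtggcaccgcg
All 3 promoters hold a GC box, searched as the letters GGGCGG. The Hnrnpab promoter adds CCAAT boxes and a TATA box, the latter searched as TATAAA. The Hnrnpd promoter adds an ETS motif, searched with the 7 letters CCGGAAG. No searched motif contains another. Of the 50 members with a promoter in the table, 34 (68%) hold a GC box, against 35.9% of 27025 mouse promoters of this length. A CCAAT box was found in 54% of the member promoters against 37.9% of all, an ETS motif in 18% against 9.12%, and a TATA box in 12% against 14.2%. The CRE motif (TGACGTCA) was found in 4% against 1.88%. The YY1 motif (AAGATGGC) was found in 4% against 2.88%. These are matches of letters and not sites shown to be used.

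The second set is stop-containing exons, taken from the GENCODE M21 transcripts of GRCm38. Each lies inside a transcript annotated for nonsense-mediated decay, overlaps no exon of a protein-coding transcript of its gene, and holds the annotated stop codon, which is in capitals. The sequence starts at the exon's first base and is given to its end or to 30 bases after the stop codon. These 5 are shown because they give the form such exons take in an SR protein, a Tra2 protein, both Hnrnpl paralogs and an RBM protein.
Srsf11 exon 4 of 9, chr3:158024123-158024231, minus strand, 109 bases: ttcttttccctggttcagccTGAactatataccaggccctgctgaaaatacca
Tra2b exon 2 of 10, chr16:22258986-22259261, minus strand, 276 bases: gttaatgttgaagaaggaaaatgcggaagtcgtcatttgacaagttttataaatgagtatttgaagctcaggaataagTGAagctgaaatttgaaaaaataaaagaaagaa
Hnrnpl exon 6 of 13, chr7:28817335-28817404, plus strand, 70 bases: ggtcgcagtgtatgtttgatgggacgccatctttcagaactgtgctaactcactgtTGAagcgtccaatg
Hnrnpll exon 7 of 14, chr17:80044940-80045022, minus strand, 83 bases: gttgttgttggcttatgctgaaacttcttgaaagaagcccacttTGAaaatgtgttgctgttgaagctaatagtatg
Rbm25 exon 5 of 18, chr12:83651646-83651750, plus strand, 105 bases: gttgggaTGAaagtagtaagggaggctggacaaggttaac
In all, 13 members had 20 such exons, counted by start and end. The Tra2b exon shown is counted again in a longer form with the same first base and stop codon. A transcript annotated for decay existed for 40 of 58 members (69.0%), against 27.4% of 13852 protein-coding genes tested, and a retained-intron transcript for 48 (82.8%) against 56.7%. The members had a median of 10 annotated transcripts and the protein-coding genes a median of 5, and genes with more transcripts have more chances of either class. The deposited values are sums per gene, so whether these exons or introns were used more or less in KPY-Setd2KO tumors was not measured here.

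By genotype alone, the quasi-likelihood test of edgeR put no member under an adjusted p of 0.05 (0% of the 16836 genes tested passed), and 11 members had an unadjusted p under 0.05, which held for 13.7% of all genes tested. Of these 11, 10 were higher in KPY-Setd2KO (6.93% of all genes) and 1, Srrm2, was lower (6.8% of all genes). The median log2 fold change of the members, KPY-Setd2KO over KPY-Ctrl, was 0.17, with 37 of 58 above 0. Over all genes tested it was 0.03, with 8877 of 16836 above 0. With the leukocyte-marker score in the edgeR model, 7 members passed the adjusted threshold (5.13% of all genes), 6 higher (2.93%) and 1 lower (2.2%). DESeq2 on genotype alone passed 7 members (4.57% of all genes), all higher (2.64%). Luc7l3, Hnrnph3, Hnrnpul2, Hnrnpab, Hnrnpd and Hnrnpa1 were among the higher members in both of these fits, Hnrnpu in DESeq2, and Srrm2 was the lower member in the fit with the score. The counts depended on single tumors, and with the score so did the share of all genes. With the score, leaving out KPY-Ctrl 4 or KPY-Ctrl 5 left 1 member (Luc7l3), with 0.82% or 1.18% of all genes. Leaving out KPY-Setd2KO 6 left 2 (1.70%). With DESeq2, leaving out KPY-Ctrl 4 left 3. Leaving out KPY-Setd2KO 4 gave a median of 0.15 and 10 members at an unadjusted p under 0.05 (12.1% of all genes). With that tumor out, 7 passed the adjusted threshold with the score (2.63%) and 4 in DESeq2. Leaving out KPY-Ctrl 1 gave a median of 0.25 and, in the same order, 20 (16.3%), 8 (6.44%) and 8 members. The DESeq2 shares were not computed with a tumor left out. Luc7l3 passed in all 14 of those fits by either tool.

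**Figure D1:**
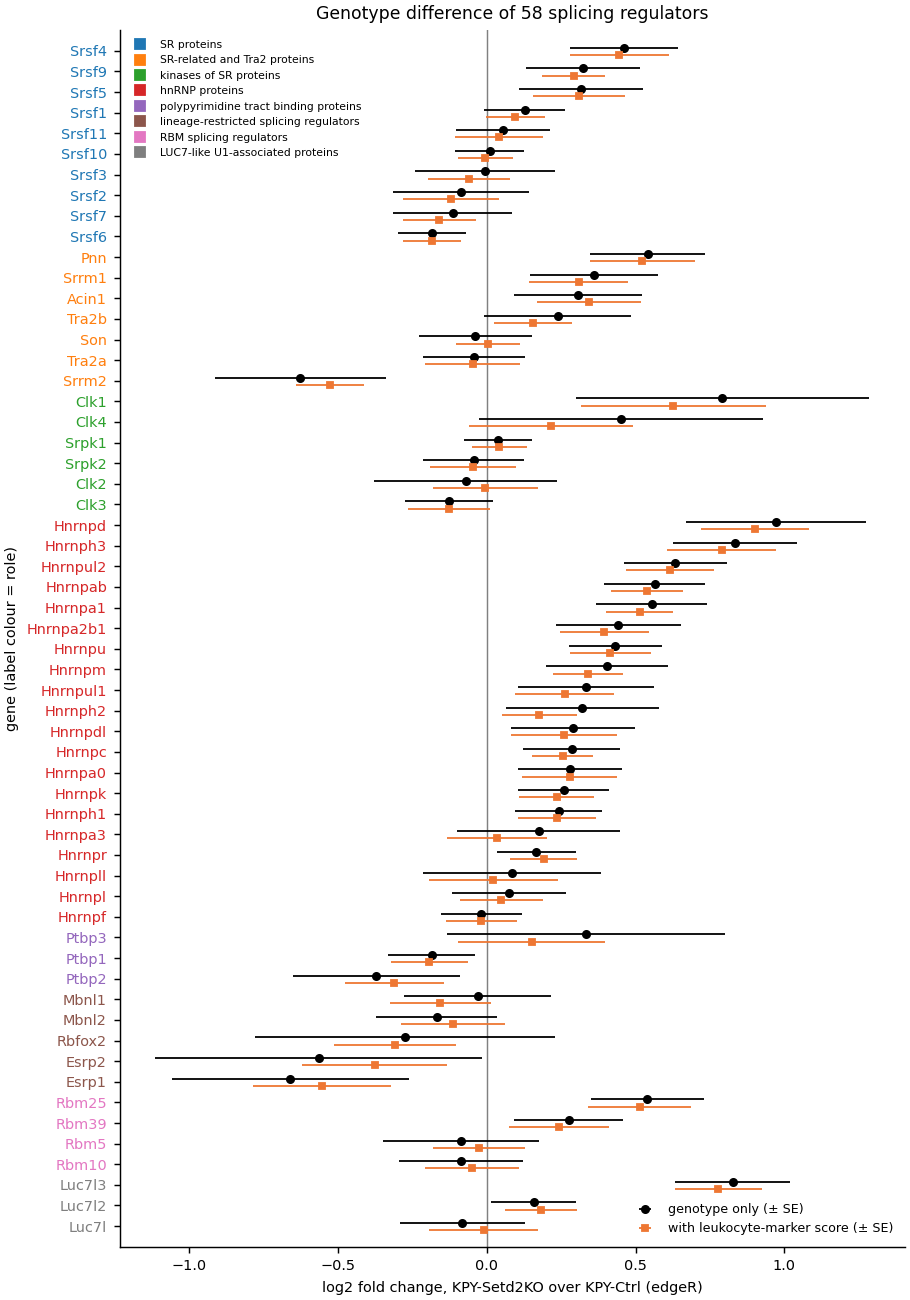
Log2 fold change (horizontal axis) of each of the 58 genes, KPY-Setd2KO over KPY-Ctrl, with black circles for genotype alone and orange squares with the leukocyte-marker score in the model. Bars are standard errors from edgeR, and label colours give the role. Of the 20 hnRNPs, 19 lie above 0, while all 5 lineage-restricted regulators lie below 0.

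The LUC7-like proteins bind the U1 snRNP and affect the choice of 5′ splice sites. Of the 3 genes only Luc7l3 had an unadjusted p under 0.05 (13.7% of all genes tested). Luc7l3 (ENSMUSG00000020863.15, chromosome 11, 94287890 to 94321988) had a lowest, median and highest level of 65.7, 76.5 and 102 CPM in KPY-Ctrl and of 109, 123 and 231 CPM in KPY-Setd2KO. The genotypes did not overlap, which held for 0.57% of all genes tested and for 2 members. Its log2 fold change was 0.83 (SE 0.19), with an adjusted p of 0.122 in edgeR on genotype alone, 0.0153 with the score in the model and 0.00165 in DESeq2. Leaving out KPY-Setd2KO 4, the tumor at 231 CPM, or any other tumor gave values from 0.70 to 0.90. Luc7l2 was at 116 ± 16.4 CPM (SD, n = 6) and 129 ± 20.6 CPM (SD, n = 8), and Luc7l at 31.6 ± 11.6 and 29.9 ± 4.91 CPM, both with overlapping genotypes. That Luc7l3 differed from its paralogs was not tested.

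The hnRNPs held most of the higher values. Their median log2 fold change was 0.31, and 19 of 20 were above 0, against 8877 of 16836 genes tested. An unadjusted p under 0.05 was seen for 6, all higher in KPY-Setd2KO (6.93% of all genes tested). With the score in the model 5 passed the adjusted threshold as higher (2.93% of all genes), and DESeq2 passed 6 on genotype alone (2.64% of all genes). The proteins are RNA-binding factors that differ in target and function.

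Hnrnpd (AUF1, a protein that binds AU-rich elements and controls message decay) had the largest log2 fold change of the 58 genes. It was at 40.8, 62.8 and 106 CPM (lowest, median, highest) in KPY-Ctrl and at 80.9, 125 and 240 CPM in KPY-Setd2KO. Its genotypes overlapped over all tumors but not within either set of tumors: below the gap in the score the tumors ranged from 40.8 to 61.8 CPM in 3 KPY-Ctrl and from 80.9 to 110 CPM in 4 KPY-Setd2KO, and above it from 63.7 to 106 CPM and from 140 to 240 CPM. Hnrnpd was therefore higher in the tumors with more leukocyte-marker RNA in each genotype. Within a set, genotypes without overlap were common, at 26.4% of all genes below the gap and 13.4% above it. The log2 fold change was 0.97 (SE 0.30), with an adjusted p of 0.188 in edgeR, 0.0184 with the score and 0.0369 in DESeq2. It passed with the score in 12 and in DESeq2 in 6 of the 14 fits that left out a tumor.

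Hnrnpab (related to Hnrnpd, and like it a binder of AU-rich RNA) was at 331, 426 and 546 CPM in KPY-Ctrl and at 552, 609 and 881 CPM in KPY-Setd2KO. Every KPY-Setd2KO tumor lay above every KPY-Ctrl tumor. Its log2 fold change was 0.57 (SE 0.17), with adjusted p values of 0.174 in edgeR, 0.0255 with the score and 0.0114 in DESeq2. Hnrnpdl, the third gene of this family, was at 64.0 ± 20.5 and 78.3 ± 20.6 CPM, with overlapping genotypes and an adjusted p of 0.593 in edgeR.

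Hnrnph3, a member of the hnRNP H/F family that binds G-rich tracts, was at 16.0, 20.2 and 28.9 CPM in KPY-Ctrl and at 21.2, 34.8 and 56.7 CPM in KPY-Setd2KO. Only the lowest KPY-Setd2KO tumor fell within the KPY-Ctrl range. Its log2 fold change was 0.83 (SE 0.21), with adjusted p values of 0.132 in edgeR, 0.0287 with the score and 0.00708 in DESeq2. Its relatives had smaller values: 0.24 (SE 0.15) for Hnrnph1, 0.32 (SE 0.26) for Hnrnph2 and -0.02 (SE 0.14) for Hnrnpf, with no test of the difference from Hnrnph3.

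Hnrnpul2, a nuclear protein related to Hnrnpu, was at 126, 149 and 193 CPM in KPY-Ctrl and at 187, 238 and 358 CPM in KPY-Setd2KO. The ranges overlapped because the highest KPY-Ctrl tumor lay above the lowest KPY-Setd2KO tumors. The log2 fold change was 0.63 (SE 0.17), with adjusted p values of 0.148, 0.0305 and 0.00858 in the same 3 fits. With the score it passed in 7 of the 14 fits that left out a tumor, and in DESeq2 in all 14. Hnrnpu, a scaffold-attachment factor of the nuclear matrix, was at 424, 524 and 592 CPM in KPY-Ctrl and at 510, 693 and 901 CPM in KPY-Setd2KO, with overlapping genotypes. Its log2 fold change was 0.43 (SE 0.16), and it passed in DESeq2 (adjusted p = 0.0465) but not in edgeR on genotype alone (0.247) or with the score (0.0817). In DESeq2 it passed in 3 of the 14 fits that left out a tumor. Hnrnpul1 was at 112 ± 30.2 and 141 ± 43.0 CPM.

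Hnrnpa1, a repressor of exon inclusion that opposes SRSF1, was at 134, 166 and 247 CPM in KPY-Ctrl and at 217, 247 and 353 CPM in KPY-Setd2KO. The log2 fold change was 0.55 (SE 0.19), with adjusted p values of 0.219 in edgeR, 0.0229 with the score and 0.0459 in DESeq2. It passed with the score in 11 and in DESeq2 in 6 of the fits that left out a tumor. Of the 31-base words of its transcripts, 29.3% also occur in transcripts of other genes, so part of its count is uncertain. Its paralogs Hnrnpa2b1, Hnrnpa3 and Hnrnpa0 had log2 fold changes of 0.44 (SE 0.21), 0.17 (SE 0.27) and 0.28 (SE 0.17), and none passed in any of the 3 fits. Hnrnpa2b1 was at 454, 542 and 746 CPM in KPY-Ctrl and at 570, 660 and 1311 CPM in KPY-Setd2KO.

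The other hnRNPs did not pass in edgeR on genotype alone, in edgeR with the score, or in DESeq2 on genotype alone. In DESeq2 with the score, where 13.0% of all genes passed, Hnrnpm and Hnrnpc passed (adjusted p = 0.0350 and 0.0407). Hnrnpm, which binds GU-rich RNA, was at 256 ± 50.8 CPM (SD, n = 6) and 339 ± 94.7 CPM (SD, n = 8), Hnrnpc, which binds uridine tracts and covers cryptic exons, at 300.2 ± 57.5 and 366 ± 64.1 CPM, and Hnrnpk, which binds C-rich RNA, at 568 ± 82.3 and 679 ± 109 CPM. Hnrnpl and Hnrnpll, paralogs that bind CA repeats, had log2 fold changes of 0.08 (SE 0.19) and 0.08 (SE 0.30), and Hnrnpr one of 0.17 (SE 0.13). Hnrnpf was the single hnRNP below 0. For Hnrnpf 38.5%, for Hnrnpa3 28.1%, for Hnrnph2 21.9% and for Hnrnpk 17.1% of 31-base words are shared with other genes.

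**Figure D2:**
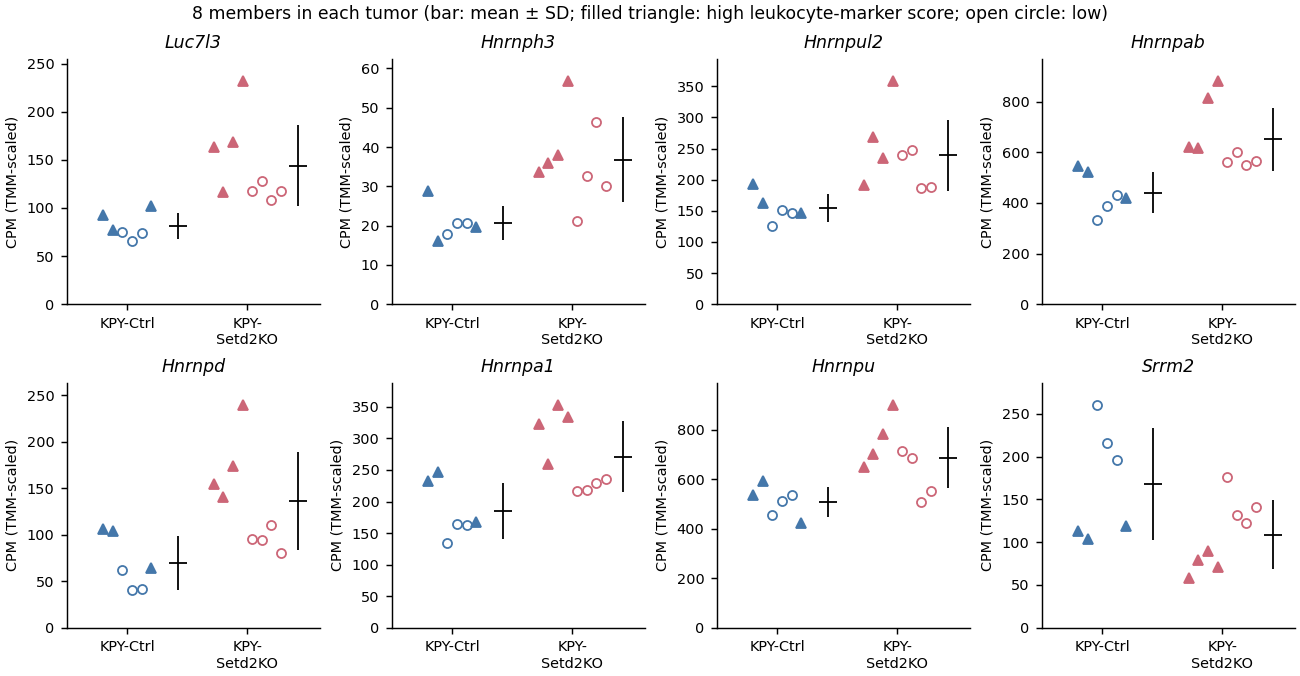
TMM-scaled CPM (vertical axes, from 0) of 8 members in each of the 6 KPY-Ctrl and 8 KPY-Setd2KO tumors, with the mean and SD beside each group. Filled triangles are tumors above and open circles tumors below the gap in the leukocyte-marker score. Luc7l3 and Hnrnpab have no overlap between genotypes, and Srrm2 is lower in the tumors above the gap in both genotypes.

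The SR proteins as a group had a median log2 fold change of 0.03, with 6 of 10 above 0, against 8877 of 16836 genes tested. An unadjusted p under 0.05 was seen for 1 (13.7% of all genes tested). That member, Srsf4, was at 36.3, 44.4 and 59.3 CPM in KPY-Ctrl and at 40.3, 61.2 and 93.3 CPM in KPY-Setd2KO. The ranges overlapped, with a log2 fold change of 0.46 (SE 0.18) and an adjusted p of 0.273 in edgeR. Srsf1, the founding SR protein, was at 199 ± 17.0 CPM (SD, n = 6) and 218 ± 34.1 CPM (SD, n = 8). Srsf3 and Srsf2, which regulate their own messages through decay, had log2 fold changes of -0.00 and -0.09 with SEs of 0.24 and 0.23. Srsf5 and Srsf9 were at 0.32 (SE 0.21) and 0.32 (SE 0.19), Srsf6 at -0.18 (SE 0.11), Srsf7 at -0.11 (SE 0.20), Srsf10 at 0.01 (SE 0.12) and Srsf11 at 0.05 (SE 0.16). None of the 10 passed with the score in the model or in DESeq2. Of the stop-exon genes shown above, Srsf11 was at 87.6 ± 14.6 CPM in KPY-Ctrl and 90.9 ± 17.8 CPM in KPY-Setd2KO.

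Among the SR-related and Tra2 proteins, Srrm2, a large scaffold protein of nuclear speckles, was the lower member. It was at 103, 158 and 260 CPM in KPY-Ctrl and at 58.5, 107 and 176 CPM in KPY-Setd2KO, and the genotypes overlapped over all tumors. Below the gap in the score the 3 KPY-Ctrl tumors were at 224 ± 32.7 CPM (SD) and the 4 KPY-Setd2KO tumors at 143 ± 23.4 CPM. Above it the genotypes were at 112 ± 7.94 and 74.8 ± 13.3 CPM. They overlapped in neither set, where no overlap was seen for 26.4% of all genes below the gap and 13.4% above it. The log2 fold change was -0.63 (SE 0.29) on genotype alone (adjusted p = 0.354 in edgeR, 0.259 in DESeq2) and -0.53 (SE 0.11) with the score (adjusted p = 0.0223 in edgeR). Pnn, a protein of the exon junction complex and of speckles, was at 51.2, 65.5 and 92.6 CPM in KPY-Ctrl and at 66.6, 90.5 and 158 CPM in KPY-Setd2KO. Its log2 fold change of 0.54 (SE 0.19) had an adjusted p of 0.240 in edgeR. Srrm1, Acin1, Tra2b, Son and Tra2a had values of 0.36 (SE 0.21), 0.31 (SE 0.21), 0.24 (SE 0.25), -0.04 (SE 0.19) and -0.04 (SE 0.17), none of which passed in the 3 fits.

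None of the 6 kinases had an unadjusted p under 0.05 (13.7% of all genes tested), and their median log2 fold change was -0.0034. Srpk1, which phosphorylates SR proteins in the cytoplasm, was at 48.7 to 57.2 CPM in KPY-Ctrl and 44.8 to 61.6 CPM in KPY-Setd2KO. Srpk2 was at 58.5 ± 15.4 CPM (SD, n = 6) and 56.7 ± 8.84 CPM (SD, n = 8). The nuclear kinase Clk1 had a log2 fold change of 0.79, but with an SE of 0.49 and an adjusted p of 0.521 in edgeR. It was at 39.3, 60.5 and 211 CPM in KPY-Ctrl and at 63.0, 130 and 292 CPM in KPY-Setd2KO. Clk4 was at 0.45 (SE 0.48), Clk2 at -0.07 (SE 0.31) and Clk3 at -0.13 (SE 0.15). With the leukocyte-marker score in the model the SEs of Clk1 and Clk4 were 0.31 and 0.28. In the tumors below the gap in the score alone they were 0.26 and 0.19, and in those above it 0.45 and 0.44. What made them wide was not tested.

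The 4 RBM proteins contained 1 member at an unadjusted p under 0.05 (13.7% of all genes tested). Rbm25, which binds U1-associated LUC7L3 and regulates the choice of 5′ splice sites, was at 81.7, 97.6 and 107 CPM in KPY-Ctrl and at 86.3, 127 and 217 CPM in KPY-Setd2KO. Its log2 fold change was 0.54 (SE 0.19), with an adjusted p of 0.235 in edgeR, 0.0927 with the score and 0.0739 in DESeq2. Rbm39, a partner of U2AF, was at 194 ± 43.0 and 235 ± 55.6 CPM, while Rbm5 and Rbm10, RNA-binding proteins that act at alternative exons, had values of -0.09 (SE 0.26) and -0.09 (SE 0.21). For Rbm10, 51.2% of 31-base words are shared with other genes. The polypyrimidine tract binding proteins had values of -0.19 (SE 0.15) for Ptbp1, -0.37 (SE 0.28) for the neuronal paralog Ptbp2 and 0.33 (SE 0.47) for Ptbp3, and none passed in the 3 fits.

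All 5 lineage-restricted regulators were below 0 in log2 fold change, with a median of -0.28. None had an unadjusted p under 0.05 (13.7% of all genes tested). Esrp1 and Esrp2, which direct epithelial splicing, were at -0.66 (SE 0.40) and -0.56 (SE 0.55). Esrp1 had a median of 69.8 and a highest level of 118 CPM in KPY-Ctrl, and of 51.3 and 75.5 CPM in KPY-Setd2KO. Rbfox2, Mbnl2 and Mbnl1 were at -0.28 (SE 0.50), -0.17 (SE 0.20) and -0.03 (SE 0.25). In the 7 tumors below the gap alone, Esrp1 was lower in KPY-Setd2KO without overlap (26.4% of all genes had no overlap there, in either direction). It was at 65.3 ± 7.40 CPM (SD, n = 4) against 104 ± 15.5 CPM (SD, n = 3). The log2 fold change was -0.69 (SE 0.16), with an adjusted p of 0.0467 in edgeR.

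Within the 7 tumors below the gap, 3 members passed an adjusted p of 0.05 in edgeR (6.26% of 17739 genes tested there): Luc7l3 at 0.70 (SE 0.14, adjusted p = 0.0333), Hnrnpd at 0.97 (SE 0.20, adjusted p = 0.0338) and Esrp1. Within the 7 tumors above it none passed (0% of 16320 genes), with 14 at an unadjusted p under 0.05 (13.8% of all genes). The median log2 fold change of the members was 0.033 below the gap, against 0.036 over all genes, and 0.26 above it, against -0.04 over all genes, so their excess over all genes was seen only above the gap. There Luc7l3 was at 0.90 (SE 0.24), Hnrnpd at 0.96 (SE 0.25), Hnrnph3 at 0.93 (SE 0.26), Hnrnpul2 at 0.65 (SE 0.23), Hnrnpab at 0.55 (SE 0.19) and Hnrnpa1 at 0.55 (SE 0.19). Below the gap the last 4 were at 0.69 (SE 0.23), 0.60 (SE 0.18), 0.55 (SE 0.16) and 0.53 (SE 0.14). These 6 were chosen from fits over the same tumors, so their shared sign is no separate support. Some other members had opposite signs: Mbnl1 was at -0.44 (SE 0.14) below the gap and 0.22 (SE 0.24) above it, Luc7l at -0.39 (SE 0.19) and 0.30 (SE 0.25), and Srsf11 at -0.31 (SE 0.18) and 0.38 (SE 0.16). The difference between the sets was not tested. This division was made after the values were seen.

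The leukocyte-marker score went with more members than genotype did. In the edgeR model with genotype and score, 33 of 58 members passed an adjusted p of 0.05 for the score, near the 56.7% of all genes tested that did. Of these, 24 rose with the score (28.3% of all genes) and 9 fell (28.3%). No member is one of the marker genes. Since no tumor lay within the gap, the slope is in effect a contrast between the 7 tumors below and the 7 above it, and what the tumors share beyond leukocyte-marker RNA (epithelial markers, digestion-response genes, nuclear-retained RNAs) moved with it. Nuclear-retained RNAs such as Malat1 and Neat1 summed to 582 to 1700 CPM in the tumors below the gap and to 121 to 699 CPM in those above it. The part of each in these values was not tested.

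**Figure D3:**
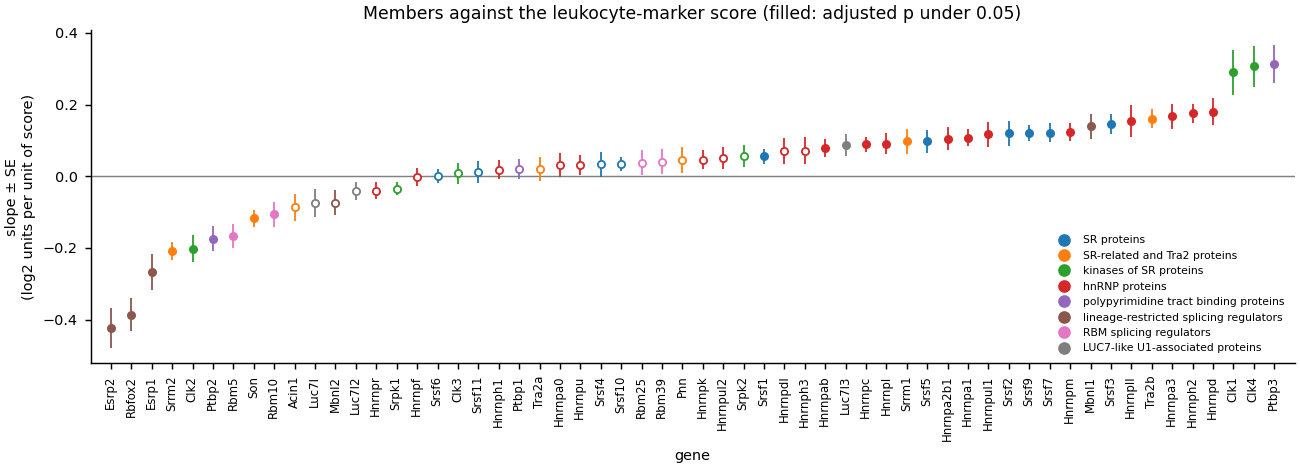
Slope of each member on the leukocyte-marker score (log2 units per unit of score, with the SE from edgeR), in order, with role by colour and filled points for an adjusted p under 0.05. Esrp2, Rbfox2 and Esrp1 stand lowest, and Clk1, Clk4 and Ptbp3 highest.

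Ptbp3, the member of the polypyrimidine tract binding family known from blood cells, had the largest slope, at 0.31 log2 units per unit of score (SE 0.05, adjusted p = 0.000161 in edgeR). It was at 99.1 to 159 CPM in the tumors below the gap and at 172 to 487 CPM in those above it, without overlap. The share of all genes without overlap between these sets was not computed. Clk4 and Clk1, kinases whose own introns are often retained, followed at 0.31 (SE 0.06) and 0.29 (SE 0.06). Clk1 was at 39.3 to 95.8 CPM below the gap and at 48.5 to 292 CPM above it. The tumor at 48.5 CPM was KPY-Ctrl 6, which also had the lowest Clk4 above the gap (25.7 CPM) and the lowest sum of digestion-response genes among those tumors (709 CPM, against 4449.7 CPM or more in the other 6). Its nuclear-retained RNAs were the highest above the gap (699 CPM, against 121 to 386 CPM). Hnrnpd and Hnrnph2 had slopes of 0.18 (SE 0.04) and 0.18 (SE 0.03).

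In the other direction, Esrp2 had a slope of -0.42 (SE 0.06), Rbfox2 of -0.39 (SE 0.05) and Esrp1 of -0.27 (SE 0.05). Esrp2 was at 41.7 to 89.5 CPM in the tumors below the gap and at 6.77 to 21.3 CPM in those above it, and Rbfox2 at 35.5 to 54.9 and at 7.48 to 23.9 CPM. Neither overlapped between the sets, for which the share of all genes was not computed. Summed epithelial markers were also lower in the tumors above the gap, at 6454 to 23450.1 CPM against 22949.7 to 65626 CPM. Srrm2 had a slope of -0.21 (SE 0.02) and Clk2 of -0.20 (SE 0.04), while Clk3 had a slope of 0.01 (SE 0.03) and did not pass. Among SR proteins 6 of 10 passed, all with positive slopes, led by Srsf3 at 0.15 (SE 0.03), and among hnRNPs 11 of 20 passed, also all positive. Both counts are near the 56.7% of all genes tested that passed. With a positive slope, 28.3% of all genes tested passed.

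**Figure D4:**
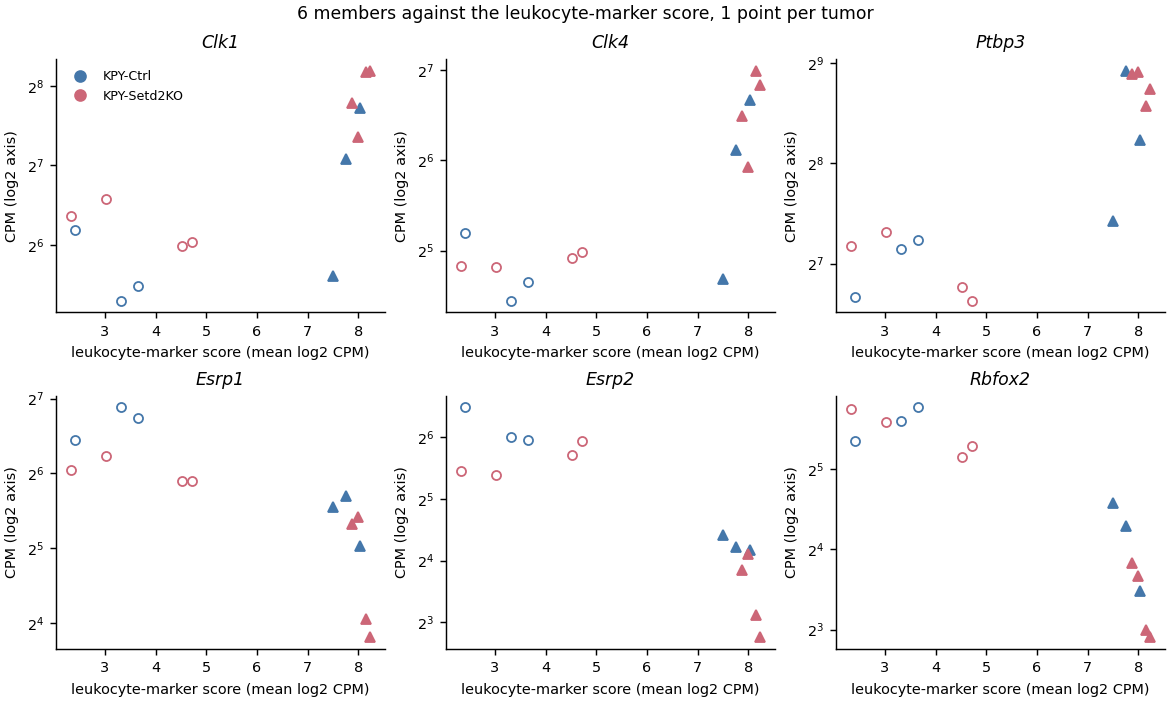
TMM-scaled CPM (log2 axes) of 6 members against the leukocyte-marker score, 1 point per tumor, blue for KPY-Ctrl and red for KPY-Setd2KO. Clk1, Clk4 and Ptbp3 are high in most tumors above the gap, with KPY-Ctrl 6 (score 7.50) lowest among them in each, and Esrp1, Esrp2 and Rbfox2 are low in all of them.

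Levels differed widely between members when divided by the summed exon length. Over the 14 tumors the highest were Hnrnpab (202 CPM per kb), Hnrnpf (152), Hnrnpa3 (119), Hnrnpa2b1 (102) and Hnrnpk (97.6), all hnRNPs. The lowest were Ptbp2 (1.39 CPM per kb), a mostly neuronal gene, Hnrnpr (2.60), Clk2 (3.47), Rbfox2 (3.67) and Rbm5 (4.04). The order depended on the length used. Per kb of the longest transcript the same 5 genes were highest but Hnrnpk moved up to 213 CPM, Hnrnpr (2.69) lay below Ptbp2 (3.14), and Rbm5 (9.87) left the lowest 5 for Luc7l (6.20). Of the 57 pairs of neighbours in this order, 55 had ranges of mean ± SD that overlapped in KPY-Ctrl and 54 in KPY-Setd2KO. The median SD between tumors of one genotype was 0.35 on the log2 CPM scale for the members and 0.67 over all genes tested, which were not matched for level. It was 0.30 to 0.34 in the pathway lists of other splicing and decay genes, so the members did not stand apart from these. The lineage-restricted regulators had the highest median SD of the roles, 0.85, but not each of them was that variable. Esrp2, Rbfox2 and Esrp1 had SDs of 1.16, 1.06 and 0.85, and Mbnl1 and Mbnl2 of 0.46 and 0.38.

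**Figure D5:**
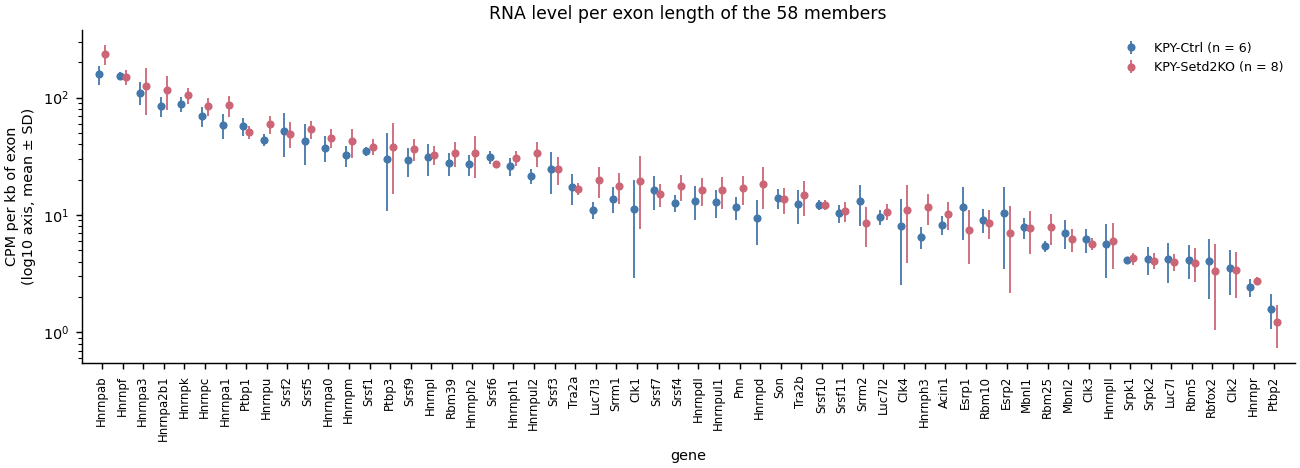
TMM-scaled CPM per kb of exon (log10 axis) of the 58 members, mean and SD over 6 KPY-Ctrl (blue) and 8 KPY-Setd2KO (red) tumors, in falling order. Hnrnpab is highest at 202 and Ptbp2 lowest at 1.39 CPM per kb over all tumors.

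Other parts of the splicing machinery were measured in the same fits. Of 36 further splicing regulators tested (of 39 listed), 5 were higher and 1 was lower in KPY-Setd2KO at an unadjusted p under 0.05 and none passed the adjusted threshold in edgeR on genotype alone, with a median log2 fold change of 0.12. Of all genes tested, 6.93% were higher and 6.8% lower at that p, which holds beside each count that follows. The smallest p was that of Rbm17 (SPF45, a U2-associated factor), at 63.8 ± 16.3 CPM (SD, n = 6) and 110.2 ± 31.1 CPM (SD, n = 8). Of 20 U1 and U2 snRNP and branch point genes 2 were higher and none lower, with a median of 0.07. Snrnp70, the U1 protein next to which LUC7-like proteins act, was at 131 ± 25.5 and 216 ± 61.7 CPM. Of 17 tri-snRNP genes 6 were higher and 3 lower, with a median of 0.15, and Sart1, which joins the tri-snRNP to the spliceosome, ranged from 41.4 to 69.6 CPM in KPY-Ctrl and from 60.4 to 102 CPM in KPY-Setd2KO, with an adjusted p of 0.116 in edgeR. Of 15 genes of nonsense-mediated decay and the exon junction complex 3 were higher and 1 lower, with a median of 0.02. Upf3a, a decay factor, was at 22.8 ± 6.01 and 42.6 ± 13.9 CPM. Rbm17, Snrnp70, Sart1 and Upf3a each had the smallest p of its list on genotype alone, in the same tumors. With the score in the model each passed in edgeR (adjusted p = 0.0153, 0.0491, 0.0161 and 0.0153), which is no separate support. Of the 36, 20, 17 and 15 genes, 3, 1, 4 and 3 passed with the score as higher and 1, 0, 2 and 1 as lower. Over all genes tested these shares were 2.93% and 2.2%.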

How the data were processed

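RNA of 6 KPY-Ctrl and 8 KPY-Setd2KO tumors was sequenced as 75-bp single-end reads by the study. The deposited table holds the authors' estimated counts for each Ensembl gene, made with Salmon 0.8.2 (submitters' processing notes) against GRCm38.p5, given as whole numbers without normalization. Whether strand was used in counting is not given in the sources used here. Identifiers were matched without version to GENCODE M21 (52403 of 52550), and every column had a sample.

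Counts were fitted over all genes with edgeR 4.0.16 in R 4.3.3 (TMM, expression filter, robust quasi-likelihood test, Benjamini-Hochberg adjustment over 16836 genes) on genotype alone. Calls used an adjusted p under 0.05 with no minimum fold. Alternatives used DESeq2 1.42.0 and limma 3.58.1, other scalings and filters, a replicate block, leukocyte- and epithelial-marker scores as covariates, and each tumor left out. Log2 CPM used a prior count of 2. The test procedure was run beforehand on simulated counts. These had a lower dispersion than the tumors, a random score and no split by leukocyte-marker RNA. How the fits behave on tumors split in this way was not tested. The lowest count of a member in any tumor was 164.

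The members, marker lists and pathway lists were chosen with earlier results of these data known. Members named with values were the 12 with the smallest p, those past the adjusted threshold with the leukocyte-marker score or in DESeq2, the 5 largest slopes on the score in each direction, and the 5 highest and 5 lowest per exon length, with the others by role. Non-members were Setd2 and the gene with the smallest p of each pathway list. Protein sequences were not analysed here. Fits within the tumors below or above the gap in the score, and leaving out tumors in the score and DESeq2 fits, were added after seeing the data. A further allele carried by the mice of both groups is not reported here.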

Additional observations from a re-analysis of the deposited data

Results flagged for a closer look

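In 10 of 116 groups examined (58 members in each genotype), 1 tumor lay far from the others of its genotype by Dixon's criterion. Chance meets this in about 1 of 20 independent groups. Here the groups share the same tumors and each genotype splits by the leukocyte-marker score, so the 10 cannot be set against that rate. KPY-Ctrl 1 was the tumor in 6 of the 10, always high: Srsf2 was at 8.138 log2 CPM there (6.891 to 7.176 in the other KPY-Ctrl tumors), Srsf3 at 8.438 (7.193 to 7.589), Srsf7 at 6.56 (5.511 to 5.891), Hnrnpa0 at 7.236 (6.264 to 6.59), Hnrnph1 at 7.692 (7.058 to 7.233) and Hnrnpll at 7.039 (5.628 to 5.86). The first 3 are SR proteins. KPY-Ctrl 1 had the highest leukocyte-marker score of its genotype, 8.02. Whether this had a part in its levels was not tested.

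In KPY-Ctrl 3, Srsf1 was at 7.387 log2 CPM, below the 7.623 to 7.742 of the other KPY-Ctrl tumors. Among KPY-Setd2KO tumors, Hnrnpdl was at 6.991 log2 CPM in KPY-Setd2KO 4 (others 5.924 to 6.272), Acin1 was at 5.593 in KPY-Setd2KO 1 (others 6.386 to 7.084), and Tra2a was at 6.498 in KPY-Setd2KO 3 (others 6.778 to 7.026).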

How the results depend on the processing

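The median log2 fold change of the members stayed above 0 in every alternative run, from 0.0066 with library size only to 0.32 in limma voom with sample quality weights, and none of the 12 fold changes and 10 slopes that were followed reversed. Members outside these 12 did change sign between sets of tumors (Srsf11, Luc7l, Mbnl1). In the tumors below the gap the median was 0.033 against 0.036 over all genes, so there was no excess there. Library size only also moved the median of all genes from 0.03 to -0.11. The number of members past an adjusted p of 0.05 by genotype, 0 in edgeR on genotype alone, was 7 with DESeq2, 7 with the leukocyte-marker score, 6 with the epithelial-marker score (4.90% of all genes), 12 with DESeq2 and the leukocyte-marker score (13.0% of all genes) and 35 in limma voom with sample quality weights (49.3% of all genes). In the 7 tumors below the gap it was 3. It stayed 0 with each tumor left out. The 12 with DESeq2 and the leukocyte-marker score were Srrm2, which was lower, and Pnn, Hnrnpa1, Hnrnpab, Hnrnpc, Hnrnpd, Hnrnph3, Hnrnpm, Hnrnpu, Hnrnpul2, Rbm25 and Luc7l3, which were higher. The number at an unadjusted p under 0.05, 11, was 7 with library size only (14.6% of all genes), 17 with DESeq2 and the score (26.1%), 18 with the epithelial-marker score (23.1%) and 40 with quality weights (57.3%), and 10 to 20 with a tumor left out (20 without KPY-Ctrl 1). The 2 members without overlap became 0 with library size only, 19 in the tumors below the gap (26.4% of all genes) and 14 in those above it (13.4%), and 2 to 5 with a tumor left out (5 without KPY-Ctrl 1). With a tumor left out, 1 to 10 members passed with the score, 3 to 8 in DESeq2, and 31 to 34 for the score itself. The share of all genes that passed with the score moved too, from 0.82% without KPY-Ctrl 4 to 7.14% without KPY-Setd2KO 1. For single named members, 470 values kept their side of the threshold and 44 newly passed it in the same direction. The causes were not tested. Correlations of same-numbered tumors ranged from -0.66 to 0.66. They were positive where both tumors lay on the same side of the gap and negative where they did not. Whether the labels' replicate numbers pair the tumors can therefore not be read from them. With the numbers as a replicate block, 0 members passed, 12 had an unadjusted p under 0.05 and the median was 0.22. The lowest count of a member in any tumor was 164 (Ptbp2).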
